A study of Capra hircus with 36 samples.

Results

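The 6 spleen libraries of a goat microRNA study of altitude are described here, chosen by their label alone, out of 36 libraries from 6 tissues. Of these, 3 came from Tibetan goats living at about 3000 m and 3 from Chuandong White Goats living at about 600 m, all adult females of about 3 years. The study sequenced small RNA from each tissue and asked which miRNAs differ between the high- and the low-altitude animals. Breed, altitude and rearing differ together between the groups, so their parts cannot be told apart. No treatment was given, and each library is 1 piece of spleen from 1 goat.

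Total counts were 7312782, 9441973 and 11005084 in high-altitude replicates 1 to 3, against 10502483, 8690880 and 8992077 in low-altitude replicates 1 to 3. A floor of 3 counts equals 0.410, 0.318 and 0.273 CPM (counts scaled to a library total of 1e6) in the high-altitude libraries against 0.286, 0.345 and 0.334 CPM in the low-altitude ones. Floors cover counting error only. Of 1391 listed miRNAs, 967 had reads in spleen and 377 had reads in all 6 libraries. A mean of at least 10 CPM was reached by 285 miRNAs, which held 99.9% of the counts. Except in the closing sections, names are given below without the files' prefixes for goat (chi-) and for sequences known from other species (conserve-). miRNAs that the study itself predicted are called predicted.

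High-altitude replicate 1 stood apart from the other libraries. Its log2 levels lay, as a root mean square, 1.42 from the average of its group's remaining libraries over 235 miRNAs, against 0.749 to 0.973 for the other 5 libraries. It also had the fewest miRNAs with reads, 549, against 605 to 671 elsewhere. According to the study's own quality sheet its RNA had the lowest integrity of all samples. Values that moved strongly on leaving it out are given with and without it for several miRNAs below.

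A miRNA is cut from a hairpin precursor, and each hairpin can give a 5p and a 3p strand, called arms, of which usually one is far more abundant. The loaded strand pairs with messenger RNAs mainly through its seed, bases 2 to 8, and lowers their translation and stability. The spleen filters blood and stores red cells, houses lymphocytes in its white pulp and macrophages in its red pulp, and in ruminants is wrapped and crossed by smooth muscle and connective tissue.

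The label spleen was checked against marker miRNAs of the cell types a piece of spleen can hold. The leukocyte list, which includes miR-142 and miR-150 and had reads for 22 of 23 listed arms, summed to 95143, 133257 and 149891 CPM in the high-altitude libraries and to totals of 104004, 98163 and 107818 CPM in the low-altitude ones. Its mean over the 6 spleen libraries, 114713 CPM, was the highest of the 6 tissues, ahead of lung with 61806 CPM and of muscle, the lowest, with 11383 CPM. Smooth muscle and mesenchymal markers, led by miR-143-3p, were the most abundant list, and the endothelial miR-126 arms summed to 6359, 11196 and 7349 CPM against 9717, 9077 and 12518 CPM. The endothelial mean in spleen, 9369 CPM, lay below lung with 21318 CPM, liver with 19802 CPM and heart with 11959 CPM. It lay above kidney with 9096 CPM and muscle with 7596 CPM. Erythroid markers were read under changing names, described further on, and no arm of miR-451 was listed. Their mean in spleen, 5001 CPM, was below muscle with 22934 CPM, heart with 22489 CPM, lung with 7178 CPM and liver with 6456 CPM. Only kidney, with 451 CPM, was lower.

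Markers of other organs were present at lower levels. The liver miRNA miR-122 summed to 3.69, 34.4 and 18.0 CPM in the high-altitude libraries against 37.5, 17.3 and 17.3 CPM in the low-altitude ones, while its mean in liver was 50656 CPM. Pancreas markers, led by miR-217-5p, summed to between 5.09 and 57.3 CPM, highest in high-altitude replicate 2, and their spleen mean of 23.7 CPM was the highest of the 6 tissues, ahead of lung with 5.45 CPM. The epithelial miR-200 and miR-141 arms summed to between 27.1 and 77.1 CPM. Striated muscle markers summed to 2309, 5029 and 2205 CPM against 2843, 3070 and 2845 CPM. Their mean of 3050 CPM lay above kidney with 1094 CPM and lung with 1189 CPM. It lay below liver with 5304 CPM, heart with 273745 CPM and muscle with 487827 CPM. The list was led by miR-133a-3p, whose counts were the same as those listed under miR-133b-5p in every library, so the sums hold them under both names. Without miR-133a-3p the sums were 1182, 2603 and 1143 CPM against 1451, 1580 and 1450 CPM.

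The miRNA most abundant in spleen was miR-143-3p, known for its role in smooth muscle. It took 35.4%, 39.8% and 36.7% of the counts at high altitude against 40.3%, 55.9% and 44.5% at low altitude. Each low-altitude library had a larger share than each high-altitude one, but the fitted log2 fold change of high over low altitude was only -0.41 (SE 0.31, edgeR, Benjamini-Hochberg adjusted p = 0.751). Next came miR-26a-5p, with 10.9 ± 2.30% against 8.0 ± 3.17% (SD, n = 3 each), and the blood-cell miRNA miR-142-5p.

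For several abundant miRNAs the library that stood apart lay away from the other high-altitude libraries. For miR-142-5p the counts were 52420, 513803 and 557517 at high altitude against 291934, 253411 and 311370 at low altitude. High-altitude replicate 1 was below all others and the other high-altitude libraries were above every low-altitude one, and the log2 fold change of 0.14 became 0.61 without it. The counts of miR-191-5p were 378607, 70641 and 172229 against 352576, 175340 and 261927, with a log2 fold change of -0.06 that became -1.40 without the same library. Of the other abundant miRNAs, miR-181a-5p (log2 fold change 0.15), miR-21-5p (0.52) and miR-22-3p (0.49, or 0.059 without that library) overlapped between the groups, and adjusted p values in edgeR were between 0.815 and 1.

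Across all 1391 miRNAs, 2 were called different between high- and low-altitude spleen, 0.144% of those tested, and both fell at high altitude. A call needed an adjusted p below 0.05 and a log2 fold change of at least 1.5 in either direction, by edgeR's quasi-likelihood test with Benjamini-Hochberg adjustment over all listed miRNAs. Without adjustment, p was under 0.05 for 43 miRNAs lower at high altitude (3.09%) and 37 higher (2.66%), and among the 285 with at least 10 CPM it was so for 24 lower and 27 higher. The median log2 fold change of the 285 miRNAs with at least 10 CPM was 0.046, with 151 positive and 134 negative values. Of 234 miRNAs with at least 10 CPM and reads in every library, 39 were lower in all 3 high-altitude libraries than in any low-altitude one (16.7%), and 28 were higher (12%).

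**Figure D1:**
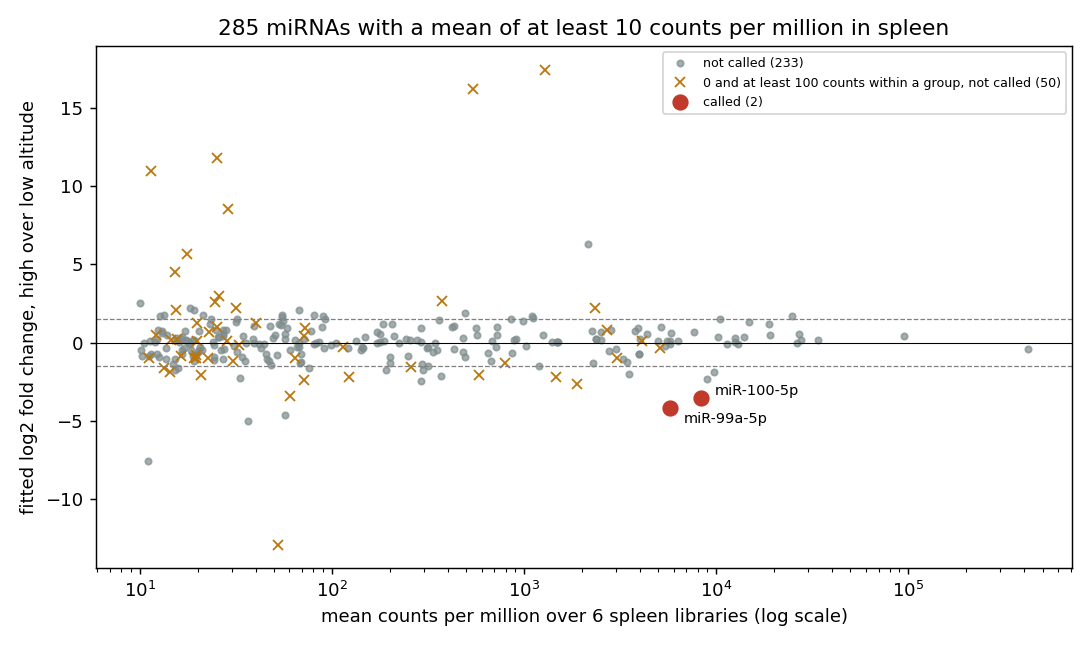
Mean CPM over the 6 spleen libraries (x axis, log scale) against the fitted log2 fold change of high over low altitude (y axis) for 285 miRNAs; dashed lines mark a change of 1.5 on the log2 scale. The 2 called miRNAs are filled red, crosses are 50 miRNAs that combine 0 and 100 or more counts within a group, and the most extreme fitted values belong to such crosses.

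The called miRNAs were miR-99a-5p and miR-100-5p, which share a seed and are known to target the growth kinase mTOR. The counts of miR-99a-5p were 3597, 6133 and 7683 in the high-altitude libraries against 105982, 79239 and 119832 in the low-altitude ones. Every high-altitude library was more than 10 times below every low-altitude one. Scaled to the totals, its level was 613 ± 108 CPM at high altitude against 10845 ± 2203 CPM at low altitude (SD, n = 3 each). The fitted log2 fold change was -4.21 (SE 0.32), an 18.5-fold lower level, with an edgeR adjusted p = 0.00765.

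For miR-100-5p the counts were 6599, 10707 and 22146 at high altitude against 181261, 95123 and 157681 at low altitude. Again the groups did not overlap, and high-altitude replicate 3 was the highest of its group. Its level was 1350 ± 586 CPM against 15247 ± 3728 CPM (SD, n = 3 each), a log2 fold change of -3.56 (SE 0.39, 11.8-fold lower) with an edgeR adjusted p = 0.0386. In whole pieces of tissue, fewer cells that carry a miRNA and less of it per cell cannot be told apart.

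These calls depended on single libraries and on the fit, though their direction did not. The edgeR adjusted p of miR-99a-5p was 0.0596 without high-altitude replicate 3, 0.0635 without low-altitude replicate 2 and 0.0987 without low-altitude replicate 3, and stayed below the threshold without each of the others, at 0.0117 without the high-altitude replicate 1 that stood apart. For miR-100-5p it was 0.0524, 0.175 and 0.0596 without high-altitude replicates 1, 2 and 3 and 0.124, 0.140 and 0.297 without low-altitude replicates 1, 2 and 3, so the call ended in every case. It also ended when scaled by library size alone (0.0916) and with all 36 libraries in 1 fit (0.0764), and both calls ended with a replicate block (0.199 for miR-99a-5p and 0.266 for miR-100-5p). Over these fits the log2 fold change stayed between -4.30 and -3.96 for miR-99a-5p and between -3.90 and -3.36 for miR-100-5p. Over all alternatives the adjusted p ran from 1.48e-67 to 0.199 for the first and from 8.32e-23 to 0.297 for the second.

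The miR-125 members, relatives of the worm timing miRNA lin-4 that are known from blood stem cells, had the same direction. Counts of miR-125a-5p were 25012, 46021 and 52496 at high altitude against 196196, 111915 and 123573 at low altitude. Those of miR-125b-5p were 12104, 31933 and 46026 against 183826, 93603 and 144826. Neither overlapped between the groups. Their log2 fold changes were -1.86 (SE 0.29) and -2.35 (SE 0.37), each with an edgeR adjusted p = 0.0874, so neither was called. DESeq2, limma-voom and edgeR's robust variant of the test called both. So did the quasi-likelihood test when only miRNAs kept by filterByExpr (adjusted p = 0.0259 for each) or with at least 10 CPM (0.00853 and 0.0191) were tested. With single libraries left out it called neither, at adjusted p of 0.0686 to 0.590.

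The list of miR-99, miR-100 and miR-125 names holds 12 arms, of which 11 had reads and 8 reached 10 CPM. Among the 8, the 2 called arms fell, none rose, 7 fitted values were negative and 1 was positive, with a median of -2.11 against 0.046 over all 285, and the same 7 were negative under each scaling tried. Of its 6 arms with at least 10 CPM and reads in every library, 4 were lower in all high-altitude libraries, against 16.7% of the 234 such miRNAs. The summed level of the list was 7527, 11072 and 11850 CPM at high altitude against 63774, 48807 and 65773 CPM at low altitude, with no overlap.

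The remaining names of that list were uneven. The counts of miR-99b-5p were 5486, 8112 and 0 against 0, 42156 and 43500, so that each group held a library without a read beside libraries with many. A second entry for miR-125a-5p, known from other species, had 498 counts in high-altitude replicate 1 and 0 in each of the others.

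**Figure D2:**
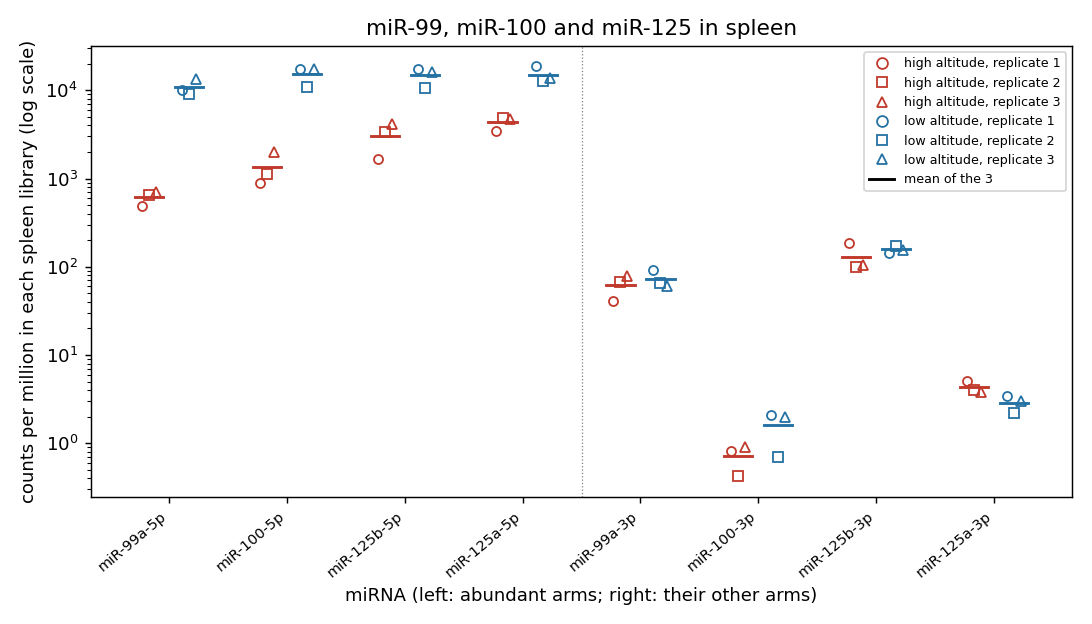
CPM (y axis, log scale) in each spleen library for the 4 abundant 5p arms of miR-99a, miR-100, miR-125b and miR-125a (left) and for their 3p arms (right); red, high altitude; blue, low altitude; symbols are replicates and bars the means of 3. The 5p arms do not overlap between the groups, whereas the 3p arms of miR-99a, miR-100 and miR-125b do.

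The less abundant arms of the miR-99a, miR-125b and miR-125a hairpins did not show the difference of their partners. Counts of miR-99a-3p were 301, 633 and 862 at high altitude against 968, 563 and 548 at low altitude. The groups overlapped, and the log2 fold change was -0.31 (SE 0.40, edgeR adjusted p = 1). The ratio of 5p to 3p counts of miR-99a was 10.2 ± 1.58 at high altitude against 156 ± 56.2 at low altitude (SD, n = 3 each). No test was run on this ratio.

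Likewise miR-125b-3p had 1352, 928 and 1150 counts against 1496, 1515 and 1397, with a log2 fold change of -0.30 (SE 0.48, or -0.82 without high-altitude replicate 1) and a ratio of 5p to 3p of 27.8 ± 16.6 against 96.1 ± 31.2 (SD, n = 3 each). With 37, 38 and 42 counts against 36, 19 and 27, miR-125a-3p did not follow its 5p arm either. Scaled to the totals, it was higher in every high-altitude library than in any low-altitude one, at a log2 fold change of 0.56 (SE 0.63). The counts of miR-100-3p, 6, 4 and 10 against 22, 6 and 18, are too few to set beside those of its partner.

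In the goat annotation ARS1.2 the gene of miR-99a is next to that of let-7c and on the same chromosome as a miR-125b gene. The neighbour let-7c-5p had 7830, 3998 and 5439 counts at high altitude against 11604, 7767 and 10630 at low altitude. One high-altitude library lay above the lowest low-altitude one, and the log2 fold change was -0.65 (SE 0.51, edgeR adjusted p = 0.751), or -1.37 without high-altitude replicate 1. Next to the gene of miR-99b lies that of let-7e, whose 5p arm had 5302, 4350 and 5540 counts against 3405, 1769 and 2847. For it the direction was the opposite and the groups did not overlap, at 1.0 (SE 0.41, adjusted p = 0.729), or 0.63 without that library.

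Smooth muscle and mesenchymal markers made up the largest block of spleen reads, and the list's summed level was 363359, 420694 and 384175 CPM at high altitude against 430128, 582019 and 471635 CPM at low altitude. The groups did not overlap, and miR-143-3p carried most of the sum. Of 17 listed arms, 15 had reads and 12 reached 10 CPM. None was called by edgeR's quasi-likelihood test. At an unadjusted p under 0.05, 4 of the 12 were lower at high altitude and none higher, against 24 lower of all 285. The robust variant of the quasi-likelihood test, DESeq2 and limma-voom each called 2 lower, miR-143-5p and miR-145-3p. Over all 1391 miRNAs these tests called, in that order, 8, 22 and 11 lower. The median was -0.70 against 0.046 over all, with 9 of 12 values negative, or 8 of 12 when scaled by library size alone. It stayed negative with any library left out. In several of these fits it was less so, among them without high-altitude replicate 1 or 2 or low-altitude replicate 3. The 12 include arms of miR-199b and miR-199c, names that replaced each other between libraries. Summed over both names, the 3p arms were at -0.07 and the 5p arms at -0.78. The summed counts of these 3p arms were 99.1% to 99.7% of those of miR-199a-3p in each spleen library. The list's sum and median may therefore hold the same reads more than once.

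The lowest p values of this list belonged to miR-143-5p, the minor arm of its hairpin, and miR-145-3p, miRNAs that are cut from 1 transcript in smooth muscle. Counts of miR-143-5p were 713, 819 and 1036 at high altitude against 5463, 3631 and 4809 at low altitude. Those of miR-145-3p were 8110, 16023 and 16488 against 59405, 43228 and 55278. Both were separated by a wide gap, with log2 fold changes of -2.44 (SE 0.35) and -2.04 (SE 0.29) and an edgeR adjusted p = 0.0874 for each. Without high-altitude replicate 1 the values were -2.60 and -1.97, with adjusted p of 0.0518 and 0.0524. Leaving out any other library gave adjusted p of 0.187 to 0.590 for both, at values between -2.46 and -2.28 for the first and between -2.11 and -1.88 for the second. The quasi-likelihood test called both lower when only miRNAs kept by filterByExpr (adjusted p = 0.0266 and 0.0259) or with at least 10 CPM (0.00853 for each) were tested.

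The other arm of miR-145, miR-145-5p, had 17417, 24667 and 13560 counts against 71174, 38524 and 29513, and miR-199a-5p, a miRNA of connective tissue cells, had 3622, 16186 and 21421 against 41939, 22918 and 25673. In both the high-altitude libraries lay below the low-altitude ones, at log2 fold changes of -1.25 (SE 0.46) and -1.30 (SE 0.48) and adjusted p = 0.729. Its partner miR-199a-3p overlapped, with 19962, 78187 and 69752 against 53443, 45532 and 62321 counts. The summed level of smooth muscle markers moved the same way as the miR-99, miR-100 and miR-125 list, and its part in that result was not tested.

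Imprinted miRNAs of the DLK1-DIO3 region, expressed from the maternal chromosome, went both ways. Of 93 listed arms, 80 had reads, 20 reached 10 CPM and none was called by edgeR's quasi-likelihood test, with 10 positive and 10 negative values and a median of 0.071. At an unadjusted p under 0.05, 2 of the 20 were higher and 1 was lower, against 27 and 24 of all 285. DESeq2 called 1 in each direction, against 14 higher and 22 lower of all 1391. Of its 19 arms with at least 10 CPM and reads in every library, 4 were lower and 2 higher without overlap, where 16.7% and 12% of the 234 such miRNAs were.

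Of the arms with an unadjusted p under 0.05 the lower one was miR-409-5p, whose counts were 5, 42 and 22 at high altitude against 533, 676 and 748 at low altitude. All low-altitude libraries were more than 10 times above all high-altitude ones, and the log2 fold change was -5.03 (SE 0.79, adjusted p = 0.0874 in edgeR's quasi-likelihood test). The exact, likelihood ratio and robust tests of edgeR, DESeq2 and limma-voom called it lower. The quasi-likelihood test did so when only miRNAs kept by filterByExpr (adjusted p = 0.0356) or with at least 10 CPM (0.0366) were tested, and with all 36 libraries in 1 fit (0.00570). With single libraries left out the value ran from -5.78 without high-altitude replicate 2 to -4.64 without replicate 1. From the same hairpin miR-409-3p had 513, 760 and 916 counts against 549, 267 and 310. Scaled to the totals that arm was higher at high altitude, 78.0 ± 6.90 CPM against 39.2 ± 11.5 CPM (SD, n = 3 each), with a log2 fold change of 0.95 (SE 0.39, adjusted p = 0.729). The ratio of 5p to 3p counts was 0.0297 ± 0.0233 at high altitude against 1.97 ± 0.869 at low altitude.

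Beside miR-409-3p, the other higher arm was miR-411a-5p, whose gene is on the chromosome of the miR-409 gene in ARS1.2, with 7178, 21816 and 19949 counts against 8398, 1985 and 4242. Every high-altitude library was above every low-altitude one when scaled, at 1702 ± 671 CPM against 499.9 ± 287 CPM (SD, n = 3 each), with a log2 fold change of 1.72 (SE 0.49, edgeR adjusted p = 0.729). The most abundant miRNA of the region, miR-127-3p, had 15708, 33148 and 25590 counts against 32326, 33521 and 28092, a log2 fold change of -0.43 (SE 0.34).

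Among miRNAs outside these lists, miR-224-5p, encoded in an intron of a GABA receptor gene, had 904, 1368 and 1677 counts at high altitude against 7804, 4006 and 5233 at low altitude. The groups did not overlap, with a log2 fold change of -2.13 (SE 0.34, edgeR adjusted p = 0.0874), and edgeR's robust variant, DESeq2 and limma-voom called it lower. The quasi-likelihood test did so when only miRNAs kept by filterByExpr (adjusted p = 0.0266) or with at least 10 CPM (0.00853) were tested. The few reads of its other arm, 4, 6 and 4 against 20, 27 and 17, were split the same way.

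Lower and without overlap were also miR-362-5p, with 85, 96 and 154 counts against 645, 472 and 435 (log2 fold change -2.25, adjusted p = 0.255), and miR-30f-5p, with 606, 878 and 1030 against 4439, 1659 and 2347 (-1.73, adjusted p = 0.426). When only miRNAs with at least 10 CPM were tested, edgeR called both lower, at adjusted p of 0.0211 and 0.0465. DESeq2 called both and limma-voom the first. In ARS1.2 the gene of miR-362 lies near that of miR-660. The neighbour miR-660-5p went the other way, with 6108, 2731 and 4966 counts against 2426, 1173 and 2024, at 1.45 (SE 0.55, adjusted p = 0.729). Without high-altitude replicate 1 its log2 fold change was 0.77.

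No miRNA was called higher at high altitude by the quasi-likelihood test over all 1391 miRNAs of the 6 spleen libraries, although the likelihood ratio test of edgeR called 3, DESeq2 called 14 and limma-voom called 1, miR-31-5p. The lowest adjusted p among higher miRNAs without overlap, 0.359, was shared by miR-31-5p and let-7f-5p. Counts of miR-31-5p were 171, 368 and 311 at high altitude against 68, 42 and 68 at low altitude. The lowest high-altitude library was more than 2 times above the highest low-altitude one, with a log2 fold change of 2.20 (SE 0.47). The quasi-likelihood test did call it higher when only miRNAs kept by filterByExpr (adjusted p = 0.0484) or with at least 10 CPM (0.0421) were tested, and with all 36 libraries in 1 fit (0.00570).

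The let-7 family, known as brakes on proliferation and opposed by LIN28, was led by let-7f-5p. Its counts were 327336, 308098 and 411219 at high altitude against 150858, 60480 and 122664 at low altitude. It took 3.83 ± 0.611% of the counts at high altitude against 1.17 ± 0.408% at low altitude (SD, n = 3 each), and no high-altitude library was as low as any low-altitude one. The log2 fold change was 1.72 (SE 0.37, edgeR adjusted p = 0.359), and 1.45 without high-altitude replicate 1.

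Among the other members let-7a-3p had the largest fitted value, 6.29, which became -0.41 without high-altitude replicate 1 and is described with the names that replaced each other. All 15 listed let-7 arms had reads and 13 reached 10 CPM. None was called by the quasi-likelihood test and 1, let-7f-5p, was called higher by DESeq2, against 14 higher of all 1391. At an unadjusted p under 0.05, 3 of the 13 were higher, let-7a-3p among them, and none lower, against 27 higher and 24 lower of all 285, and the median was 0.12 against 0.046 over all, with 9 values positive and 4 negative. With limma-voom 8 were positive, and without high-altitude replicate 1 the number was 7. The summed family level was 74773, 51172 and 59361 CPM at high altitude against 33261, 23961 and 34273 CPM at low altitude, without overlap. Without let-7f-5p the sums were 30010, 18541 and 21995 CPM against 18897, 17002 and 20632 CPM, with overlap. The abundant let-7i-5p and let-7g-5p overlapped, at log2 fold changes of 0.12 (-0.34 without high-altitude replicate 1) and 0.07.

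Of the miRNAs that lie between the HOX genes, the 5 arms with at least 10 CPM were higher in fit, and for the most abundant of them the difference rested largely on one library. Counts of miR-10a-5p were 194997, 69149 and 136074 at high altitude against 60723, 46629 and 48407 at low altitude, and those of miR-10b-5p were 350047, 207327 and 93390 against 131766, 108436 and 90273. For the first the groups did not overlap, and for the second they did. Log2 fold changes were 1.51 (SE 0.58) and 1.19 (SE 0.68), both with an edgeR adjusted p = 0.729. Without high-altitude replicate 1 they were 0.67 and 0.20.

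Of the 12 listed arms of miR-10 and miR-196, 11 had reads and 5 reached 10 CPM. None was called by edgeR, DESeq2 or limma-voom, and 1 of the 5, a higher one, had an unadjusted p under 0.05, against 27 higher of all 285. The 5 fitted values were positive, with a median of 1.19 against 0.046 over all, and among the scarcer arms miR-10b-3p was at -1.25. Without high-altitude replicate 1, and likewise without replicate 3, 4 of the 5 stayed positive.

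Leukocyte miRNAs as a list did not move one way. Of 23 listed arms, 16 reached 10 CPM and none was called by edgeR, DESeq2 or limma-voom. At an unadjusted p under 0.05, 1 of the 16 was lower and none higher, against 24 lower and 27 higher of all 285. The median was 0.16 against 0.046 over all, with 10 positive and 6 negative values, or 8 and 8 with limma-voom. Of 14 arms with at least 10 CPM and reads in every library, 2 were higher and 1 lower without overlap, where 12% and 16.7% of the 234 such miRNAs were.

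The lower one, miR-342-3p, a miRNA of B cells among others, had 6908, 26188 and 33715 counts against 55243, 31757 and 35054. High-altitude replicate 1 was far below the rest, and the log2 fold change of -1.03 (SE 0.43, edgeR adjusted p = 0.729) became -0.71 without it. The higher ones were miR-155-5p, which is made on activation of lymphocytes and macrophages, and miR-142-3p. Counts of miR-155-5p were 18092, 6490 and 12165 against 6813, 4774 and 4307. Its level was 1422 ± 935 CPM against 559 ± 85.3 CPM (SD, n = 3 each), and the log2 fold change was 1.38 (SE 0.60, adjusted p = 0.729). High-altitude replicate 1 was the highest, and without it the value was 0.51.

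For miR-142-3p the counts were 29511, 46109 and 46762 against 36825, 33535 and 31390, at a log2 fold change of 0.20 (SE 0.29). The mature lymphocyte miRNA miR-150-5p had 25230, 65638 and 57713 counts against 45242, 14684 and 15550. Low-altitude replicate 1 lay among the high-altitude libraries, so that the groups overlapped, and the log2 fold change was 0.96 (SE 0.44, adjusted p = 0.729). The myeloid miR-223-3p had 3466, 5476 and 9513 counts against 3260, 0 and 0 and was called higher only without low-altitude replicate 1 (adjusted p = 0.0254), and the inflammation-induced miR-146a-3p 45330, 67461 and 229427 against 92600, 106033 and 116927.

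Ciliated-cell miRNAs, among them the p53-induced miR-34 arms, were scarce. The list summed to 38.0, 47.9 and 41.3 CPM against 16.9, 18.2 and 20.4 CPM, without overlap. The difference lay in miR-34c-5p, without which the sums were 12.2, 12.4 and 9.90 CPM against 6.38, 14.3 and 13.1 CPM, with overlap. That arm had 189, 335 and 346 counts against 111, 34 and 65 (log2 fold change 2.06, SE 0.52, edgeR adjusted p = 0.625). Of 8 listed arms, 7 had reads, and only miR-34c-5p reached 10 CPM. None was called by any edgeR test, and DESeq2 called 2, both higher, against 14 higher of all 1391, namely miR-34c-5p and its genomic neighbour miR-34b-5p, with 34, 40 and 36 counts against 12, 5 and 6.

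Of the other higher miRNAs without overlap, miR-504-5p, known to target p53, had 156, 80 and 236 counts against 41, 19 and 25 (log2 fold change 2.52), and miR-6529a-5p 1056, 489 and 1452 against 344, 160 and 231 (2.10). Counts of miR-423-5p were 17455, 9551 and 17374 against 6192, 3588 and 6218 (1.57, or 1.05 without high-altitude replicate 1), and those of miR-148a-3p, abundant in liver and blood cells, 142225, 278617 and 166733 against 128793, 56794 and 58027 (1.30). For miR-3431-3p they were 671, 648 and 902 against 487, 198 and 205 (1.39). Adjusted p values of these 5 in edgeR were between 0.630 and 0.729. DESeq2 called miR-504-5p and miR-6529a-5p higher, at adjusted p of 0.00191 and 0.0160, and none of the others.

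The hypoxia list, which the question of altitude brings to mind, held little difference. Of its 10 arms all had reads and 5 reached 10 CPM, with none called by edgeR, DESeq2 or limma-voom. At an unadjusted p under 0.05, 1 of the 5 was lower (miR-199a-5p), against 24 lower of all 285. The median was -0.11 against 0.046 over all. The best known of them, miR-210-3p, induced by the factor HIF, had 137 counts in high-altitude replicate 2 and 0 in each other library. It is one of the names that combine 0 and at least 100 counts within a group, described further on. Its counts therefore do not show whether it differed or was absent. The most abundant, miR-26a-5p, had 604357, 1179593 and 1317006 counts against 1179021, 424891 and 710205, with overlap and a log2 fold change of 0.40 (SE 0.33, adjusted p = 0.778).

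From the cluster of miR-424 and miR-450, 8 listed arms had reads and 4 reached 10 CPM. None was called by edgeR and 1 was called lower by DESeq2, against 22 lower of all 1391. At an unadjusted p under 0.05, 2 of the 4 were higher and none lower, against 27 and 24 of all 285. The median was 1.72 against 0.046 over all, with 3 of 4 values positive, and it was 0.77 without high-altitude replicate 3. The most abundant, miR-450b-5p, had 285, 909 and 3118 counts against 452, 242 and 446, and miR-542-3p had 57, 125 and 461 against 57, 46 and 58. High-altitude replicate 3 was the highest library for both, and the fitted values of 1.69 (SE 0.70) and 1.75 (SE 0.71), with an adjusted p = 0.729, became 0.70 and 0.83 without it.

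The remaining lists held no call by edgeR's quasi-likelihood test. Of 22 detected arms of miR-17-92 and its paralogues, 14 reached 10 CPM with a median of -0.016, and miR-92a-3p was the most abundant, at 0.99 (SE 0.54), or 0.26 without high-altitude replicate 1. The miR-23, miR-24 and miR-27 clusters had a median of -0.28 over 5 arms. Among them miR-24-3p had 1905, 8469 and 9653 counts against 12157, 14487 and 20871, without overlap, at -1.47 (SE 0.52, adjusted p = 0.729), or -1.13 without high-altitude replicate 1. The abundant miR-27b-3p was at -0.12, or -0.51 without it.

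For the miR-29, miR-30 and miR-15 with miR-16 families the medians were -0.13 over 4 arms, 0.21 over 10 and -0.27 over 9, with miR-29a-3p at 0.08, miR-30a-5p at 0.26 and miR-16a-5p at 0.02. Without high-altitude replicate 1 the median of each of these families had the opposite sign. In the miR-30 family miR-30a-3p had 1254, 0 and 1 counts against 0, 3 and 1, and miR-30c-5p 0, 6980 and 0 against 13571, 6119 and 6794. The fitted log2 fold change of miR-30c-5p was -2.06. Without high-altitude replicate 2, which leaves only libraries at 0 in that group, it was -16.06 and called lower (edgeR adjusted p = 0.0346). Of these lists DESeq2 called 1 arm of miR-17-92 higher and 1 arm each of the miR-30 family and the miR-15 with miR-16 family lower. Over all 1391 miRNAs DESeq2 called 14 higher and 22 lower. The endothelial miR-126-5p was at -0.20, miR-194-5p at -0.04 and miR-141-3p at -0.02.

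Of the 6 miRNAs that the study placed in altitude pathways in spleen, none was called by edgeR's quasi-likelihood test over all 1391 in the 6 libraries. Unadjusted p was under 0.05 upward for 2 and downward for 3, against 37 and 43 of all 1391. DESeq2 called 2 in each direction, against 14 higher and 22 lower of all. The exact, likelihood ratio and robust tests of edgeR called 1, 3 and 1, against 3, 6 and 8 of all 1391. The study chose this list on these same samples, so its directions are not independent evidence. Beside miR-409-5p it holds miR-450-3p, with 0, 1 and 1 counts at high altitude against 0, 94 and 155 at low altitude, and miR-202-5p, with 0, 7 and 0 against 29, 9 and 240. For the first, low-altitude replicate 1 was at 0 like the high-altitude group, and for the second the groups met closely, at 7 and 9 counts.

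The other members of that list are predicted miRNAs. The predicted miR-116-3p had 0, 15745 and 17547 counts at high altitude and 0 in every low-altitude library, and the predicted miR-77-3p had 0, 930 and 55 against 0, 12 and 2. The predicted miR-136-5p, a different name from the known miR-136-5p, had 0, 31965 and 47522 against 0 in each low-altitude library. All were at 0 in high-altitude replicate 1. Without that library the edgeR adjusted p of the predicted miR-136-5p and of the predicted miR-116-3p was 0.0117, and both were then called higher. miR-486-5p, described below, was called lower in the same fit, also at 0.0117. In that fit each of these names had counts in every library of one group and 0 in every library of the other. Predicted miR-136-5p and miR-486-5p replaced each other between libraries. Summed, they were at 3385 and 4318 CPM in high-altitude replicates 2 and 3 against 3624, 3139 and 5771 CPM at low altitude.

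The sequences that the study's primer table gives for members of that list are shown so that the miRNAs behind the names can be identified, 5′ to 3′, with the seed, bases 2 to 8, in capitals.
miR-409-5p: aGGTTACCcgagcaactttgcat
miR-450-3p: aTTGGGAGcattttgcatgcat
predicted miR-77-3p: aAAAACCCagatgaactttttt

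Some names replaced each other between libraries, which bears on how single counts are read. The red-cell miRNA miR-486-5p had 87668, 0 and 0 counts at high altitude against 38065, 27280 and 51896 at low altitude, so it was at 0 where the predicted miR-136-5p had its counts. Over all 36 libraries the 2 names were both above 0 in 1 library, and at least one of them was always present. Summed, they gave 87668, 31965 and 47522 against 38065, 27280 and 51896 counts, with overlap and a log2 fold change of 0.75 (SE 0.61, edgeR adjusted p = 0.769). Their reads were not compared by sequence.

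In the let-7a hairpin, let-7a-5p had 0, 54210 and 92829 counts at high altitude against 65076, 36696 and 53430 at low altitude, while let-7a-3p had 92643, 546 and 492 against 870, 481 and 399. Among the spleen libraries high-altitude replicate 1 alone had its counts under the 3p name, which was the larger one in 16 of all 36 libraries. The fitted log2 fold change of let-7a-3p, 6.29, became -0.41 without that library, and the sum of both names was at 0.75 (SE 0.42, edgeR adjusted p = 0.717). miR-199b-3p and miR-199c-3p were never above 0 in the same library in any of the 36, and their sum was 99.1% to 99.7% of miR-199a-3p in each spleen library. The log2 fold change of that sum was -0.07 (SE 0.38).

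The sequences the study lists under 2 of these names are shown since the first carries, in capitals, the seed for which the 5p arms of the let-7 family are known.
let-7a-3p: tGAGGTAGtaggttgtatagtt
miR-199c-3p: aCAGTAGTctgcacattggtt

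**Figure D3:**
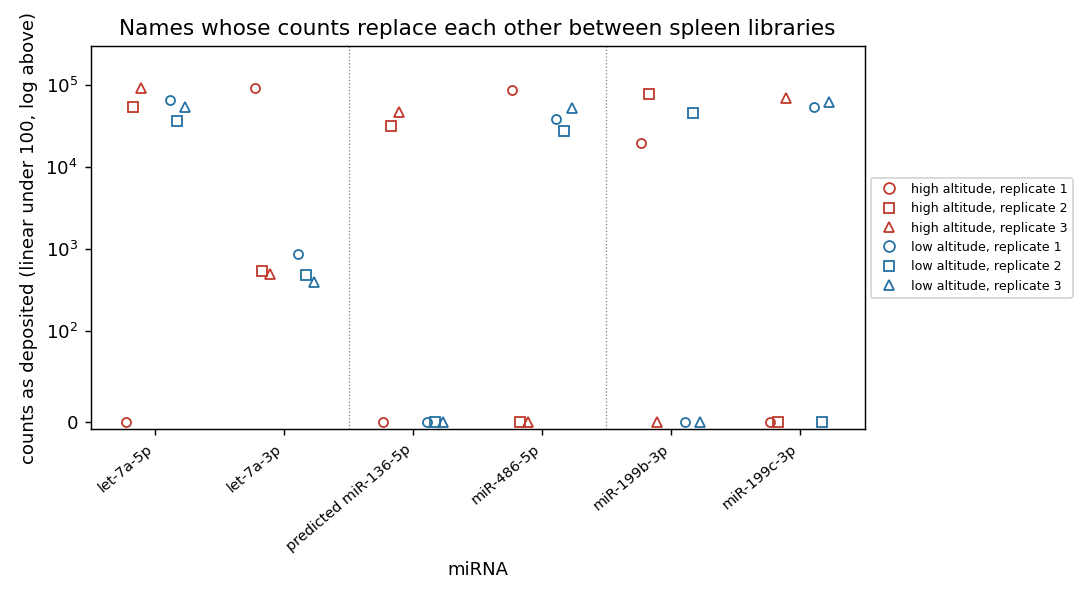
Deposited counts (y axis, linear under 100 and logarithmic above) in each spleen library for let-7a-5p and let-7a-3p, predicted miR-136-5p and miR-486-5p, and miR-199b-3p and miR-199c-3p; red, high altitude; blue, low altitude; symbols are replicates. In each pair of names a library with many counts under one name has few or 0 under the other.

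Such gaps were not rare. In 75 miRNAs, 50 of them with at least 10 CPM, a group combined a library at 0 with one of 100 counts or more. They included miR-144-3p, a red-cell miRNA, with 0, 6840 and 8672 counts against 7249, 7613 and 15438, and miR-16b-5p with 5970, 6830 and 0 against 30382, 12550 and 26081. Red-cell markers together summed to 11989, 837 and 998 CPM at high altitude against 4437, 4099 and 7646 CPM at low altitude. Without miR-486-5p, which replaced another name in some libraries, the sums were 0.410, 837 and 998 CPM against 813, 959.6 and 1875 CPM.

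The difference in spleen was set against the mean of the same difference in heart, kidney, liver, lung and muscle, by a contrast over all 36 libraries in edgeR. One miRNA, miR-542-3p, passed at an adjusted p below 0.05, 0.0719% of the 1391 tested. Fitted tissue by tissue, its log2 fold change was 1.75 in spleen and 0.56, -0.23, -1.43, -3.51 and -1.82 in heart, kidney, liver, lung and muscle. The spleen value exceeded the mean of the others by 2.95 (SE 0.56, adjusted p = 0.0158).

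That result rested on high-altitude replicate 3, the library with 461 counts. Without that goat's libraries the difference was 2.05 and the edgeR adjusted p 1, and the adjusted p was 0.279, 0.365 and 0.485 without the low-altitude replicates 1, 2 and 3. Unadjusted p was under 0.05 for 37 miRNAs, and a limma-voom fit with the goat as a random block called 20.

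For the called miRNAs of spleen the difference from other tissues was not itself called. The log2 fold change of miR-99a-5p was -3.44, -3.83, -4.10, 0.67 and -2.18 in heart, kidney, liver, lung and muscle, and the spleen value differed from their mean by -1.69 (SE 0.93, adjusted p = 1). For miR-100-5p the other tissues were at -2.51, -2.67, -3.08, 1.02 and -1.41 in the same order, a difference of -1.90 (adjusted p = 1). The spleen value was the lowest of the 6 tissues for both, and lung alone had the opposite sign. The same held for the sign of lung in miR-125b-5p, miR-125a-5p and miR-409-5p. Of the higher miRNAs, miR-31-5p was at 2.20 in spleen and between -0.14 and 1.06 elsewhere, a difference of 1.74 with an adjusted p = 0.232.

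**Figure D4:**
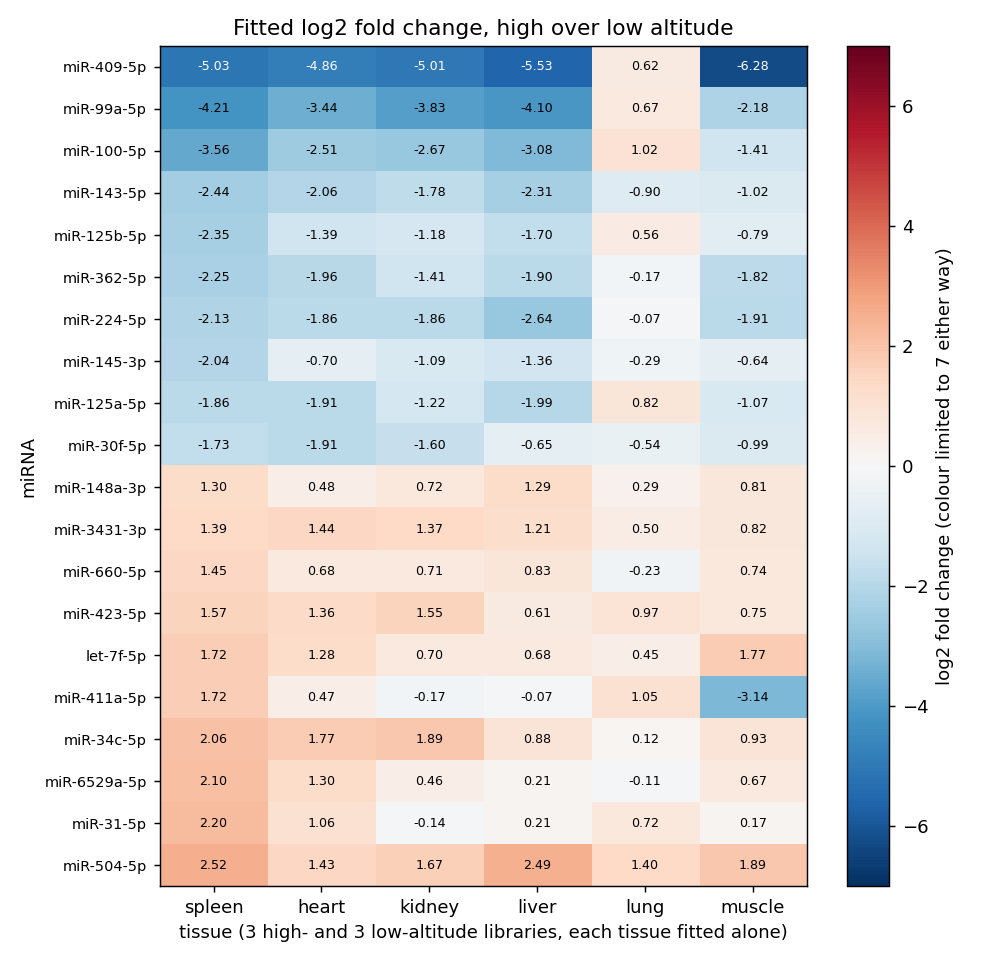
Fitted log2 fold change of high over low altitude (number and colour, blue lower and red higher at high altitude) for 20 of the 67 miRNAs whose spleen libraries do not overlap, the 10 of lowest p in each direction (y axis), in each of 6 tissues (x axis), each tissue fitted alone. The 10 lower spleen miRNAs are also negative in heart, kidney, liver and muscle, and in lung 5 of them are positive.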

How the data were processed

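Small RNA libraries of spleen were taken from 6 goats among 36 libraries. The authors trimmed the reads (base calls by CASAVA 1.8), mapped them with Bowtie and deposited raw counts per mature miRNA, which were used unchanged. All 1391 listed miRNAs were tested in edgeR 4.0.16 (R 4.3.3) by TMM scaling and the quasi-likelihood test, Benjamini-Hochberg over all. A second fit of the 36 libraries tested the spleen difference against the mean of the other 5 tissues. Alternatives used DESeq2 1.42.0 and limma 3.58.1, and the fits were tested on simulated data. No value printed here comes from the simulated data. Summaries were made with Python 3.11.15, NumPy 2.4.6, pandas 2.3.3 and Matplotlib 3.10.9. Named miRNAs were those called, the 10 of lowest p per direction without overlap at 10 CPM or more and reads in all libraries, the 10 most abundant, the study's pathway miRNAs, and of each list its most abundant member and members with an unadjusted p under 0.05. miR-34b-5p, miR-210-3p, other arms and neighbours were added after their values were seen. Members and lists were chosen with earlier results of these data known.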

Additional observations from a re-analysis of the deposited data

Results flagged for a closer look

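A difference between tissues was found for chi-miR-542-3p, whose high-over-low log2 fold change in spleen exceeded the mean of the other 5 tissues by 2.95 (SE 0.56, edgeR adjusted p = 0.0158). It was the only miRNA to pass that contrast. Over the fits that left out the libraries of 1 goat the difference was between 2.05 and 3.49, and it did not pass without high-altitude replicate 3 or without any one of the 3 low-altitude replicates.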

How the results depend on the processing

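Alternatives were compared for 57 named miRNAs, the 2 called ones among them, 1180 values in all. Of these, 1046 kept their direction and their side of the threshold, 64 passed it anew, 13 no longer passed and 57 turned direction, over 15 miRNAs. Summing arms and copies and dropping the minimum fold change were followed by the number called alone.

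The number called was 2 with RLE size factors, with at least 3 reads in a spleen library, with arms and copies summed, with identical miRNAs kept once and without a minimum fold change, and 3 by the exact test. It was 6 by the likelihood ratio test, 8 by the robust quasi-likelihood test, 12 by limma-voom, 36 by DESeq2, 1 with library size only, 9 with filterByExpr, 11 with at least 10 CPM, 9 without miRNAs that had 0 and at least 100 counts in a group, and 5 with all 36 libraries in 1 fit. Summing the names that replaced each other, an alternative chosen after seeing the data, gave 2. With the replicate block it was 0, with 65 at an unadjusted p under 0.05, and the adjusted p of chi-miR-99a-5p was 0.199. Replicate numbers mark different goats, and deviations of libraries with the same number correlated at 0.0697, 0.172 and 0.280 across 235 miRNAs. Leaving out single libraries gave 0 to 4. The spleen contrast against other tissues called 20 with the goat as a random block, 2 with at least 10 CPM and 0 to 3 with single goats left out, where the test assumes a shared spread.

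The turned values of log2 fold change follow, and the cause was not tested. For conserve-chi-miR-142-5p they were -0.18 with limma-voom and -0.20 with the replicate block, and for conserve-chi-miR-486-5p -11.62 and -14.36. In the same order they were -0.055 and -0.057 for chi-miR-133a-3p, -0.59 and -0.90 for chi-miR-217-5p and 0.052 and 0.039 for chi-miR-141-3p. For chi-miR-29a-3p they were -0.0094 and -0.029, and for chi-miR-16a-5p -0.11 and -0.11. With DESeq2, RLE factors and filterByExpr chi-miR-191-5p was at 0.065, 0.065 and 0.075 and chi-miR-141-3p at 0.020, 0.019 and 0.024. With library size only conserve-chi-miR-486-5p was at -0.064, chi-miR-141-3p at 0.068 and chi-miR-194-5p at 0.00070. With at least 10 CPM and with all 36 libraries chi-miR-133a-3p was at -0.0022 in both and chi-miR-16a-5p at -0.064 and -0.045. For chi-miR-141-3p the value was 0.0070 without gapped miRNAs and 0.022 with names summed.

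With single libraries left out the range was -0.20 to 0.61 for conserve-chi-miR-142-5p, -0.068 to 0.56 for conserve-chi-miR-181a-5p, -1.40 to 0.40 for chi-miR-191-5p and -18.38 to 0.70 for conserve-chi-miR-486-5p. For chi-miR-126-5p it was -0.35 to 0.031, for chi-miR-122-5p -1.20 to 0.0067, for chi-miR-133a-3p -0.38 to 0.24 and for chi-miR-217-5p -1.92 to 0.66. It was -0.27 to 0.19 for chi-miR-141-3p, -0.23 to 0.25 for chi-miR-194-5p, -0.41 to 6.87 for chi-let-7a-3p, -0.51 to 0.060 for chi-miR-27b-3p, -0.40 to 0.30 for chi-miR-29a-3p, -1.69 to 10.002 for chi-miR-30a-3p and -0.62 to 0.32 for chi-miR-16a-5p.

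Depth limits rare miRNAs. The floor of 3 counts was 0.273 to 0.410 CPM, 292 miRNAs had below 10 counts in every spleen library, and 225 had reads in a single library. Scaling by library size alone moved the median log2 fold change of 285 miRNAs from 0.046 to 0.11. With 3 goats in each group, breed, altitude and rearing cannot be told apart.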
